A study of Homo sapiens with 9 samples.

Results

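The SR splicing factors described here are 10 genes: SRSF1, SRSF2, SRSF3, SRSF4, SRSF5, SRSF6, SRSF7, SRSF10, SRSF11 and TRA2B. The list groups them as genes that regulate their own level through poison exons, which was not measured here. They were matched by name, by a rule that uses no measured value, and all 10 were found among the 51796 genes in the deposited count table. All 10 also passed the filter on low counts, which left 18292 genes for testing. RNA was sequenced from A549, an established epithelial line from a human lung adenocarcinoma, in 3 groups of 3 libraries. Cells received 1 µM MS023, 1 µM GSK591 or the solvent DMSO, and RNA was taken after 7 days. MS023 inhibits the type I protein arginine methyltransferases such as PRMT1, which place asymmetric dimethylarginine. GSK591 inhibits PRMT5, which makes most of the symmetric dimethylarginine in the cell. Control plates were seeded with fewer cells than treated plates, so seeding density and treatment cannot be told apart in either comparison with DMSO. The labels do not say that the 3 RNA samples of a group came from separate cultures, so p-values measure only the spread between these libraries.

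SR proteins bind short motifs in exons through RNA recognition motifs and recruit the splicing machinery through a tail rich in arginine-serine repeats. Kinases of the SRPK and CLK families phosphorylate that tail, and arginine methylation is known on several SR proteins and on many other RNA-binding proteins. Most SR genes contain a poison exon, a cassette exon with an early stop codon. When the protein is abundant the exon is included, and the message is removed by nonsense-mediated decay (NMD), the pathway that degrades messages with early stop codons.

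The genes were chosen for poison exons, so annotated NMD transcripts are expected from the choice and are no finding. In GENCODE 29 each of the 10 genes has at least 1 transcript annotated as an NMD target, against 41.4% of the 14202 protein-coding genes tested. In 6 of the 10, such a transcript holds an internal exon that no protein-coding transcript of the gene contains. In SRSF3, SRSF4, SRSF6 and SRSF7 the annotated reading frame also ends inside such an exon. For the other genes of the group the search met no such exon with its stop codon, although the group was chosen for exons of this kind. The exons of these 4 genes are shown. Each is printed 5′ to 3′ on the transcribed strand, from its first base to its stop codon, with the stop codon in capitals, as GENCODE 29 gives it on build GRCh38. Shown for each gene is its longest such exon, in the shorter of the overlapping annotated forms for SRSF7.
SRSF3 exon at chr6:36599821-36600276, plus strand, 456 bases in all: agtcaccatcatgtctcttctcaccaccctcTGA
SRSF4 exon at chr1:29159864-29160058, minus strand, 195 bases in all: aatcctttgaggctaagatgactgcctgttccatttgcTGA
SRSF6 exon at chr20:43459153-43459420, plus strand, 268 bases in all: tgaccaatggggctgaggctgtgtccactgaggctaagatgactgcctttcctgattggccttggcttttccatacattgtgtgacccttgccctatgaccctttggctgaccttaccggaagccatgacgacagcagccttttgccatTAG
SRSF7 exon at chr2:38748898-38749173, minus strand, 276 bases in all: ggcagaaaatttgagacggTGA
In these stretches the reading frame met its stop 34 bases into the SRSF3 exon, 41 bases into the SRSF4 exon, 152 bases into the SRSF6 exon and 22 bases into the SRSF7 exon. The SRSF4 and SRSF6 stretches share an identical run of 20 bases, tgaggctaagatgactgcct. It lies at bases 8 to 27 of the SRSF4 exon and at bases 29 to 48 of the SRSF6 exon. The next longest run shared by such stretches of different genes of the group was 8 bases. The deposited counts are per gene and do not separate transcripts, so inclusion of these exons was not measured, and all values below are for the whole gene.

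The libraries held between 31398075 and 51244525 counts. GSK591 replicate 3 stood apart by 927.5 CPM (counts per 1000000 counts of a library) of mitochondrial rRNA, against 0.401 to 20.1 CPM in the other 8 libraries, and leaving it out ended none of the calls on the 10 genes. All 5 epithelial markers were detected in every library, with the keratins abundant and EPCAM at 6.43 to 22.6 CPM. Of the leukocyte markers, PTPRC had at most 2 counts and CD3E at most 1 count per library, while CD68 had 496 to 889 counts and ITGAM 66 to 313 counts. The levels of the marker lists differed between the groups and are given under the other observations. PRMT5 mRNA differed by 0.02 ± 0.05 (log2 ± standard error) between GSK591 and DMSO cells, with an adjusted p of 0.700 by edgeR's quasi-likelihood test. In MS023 cells PRMT5 mRNA fell by 0.16 ± 0.05 on the log2 scale (adjusted p 0.01002). PRMT1 mRNA fell by 0.43 ± 0.05 on the log2 scale in GSK591 cells (adjusted p 2.59e-06). Its change in MS023 cells was 0.11 ± 0.05 (adjusted p 0.0682).

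Relative to DMSO, 3 of the 10 genes were lower and 1 was higher in GSK591 cells, a comparison in which 62.6% of all genes tested were called. SRSF4 fell by 33.3%, SRSF3 fell by 26.4% and TRA2B fell by 21.1%, while SRSF11 rose by 9.07%. In MS023 cells none of the 10 was lower and 3 were higher, where 51.0% of all genes were called. SRSF7 rose by 16.5%, SRSF4 by 8.02% and TRA2B by 7.61%. SRSF1, SRSF2, SRSF5, SRSF6 and SRSF10 passed the test in neither comparison. Levels below are CPM, for which library sizes were scaled by TMM, and means carry the SD over 3 libraries. Changes are log2 values fitted across all genes, with standard errors, and a change was called at an adjusted p under 0.05 in edgeR's quasi-likelihood test. In bulk libraries, fewer cells with a message and less of it per cell cannot be told apart.

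**Figure D1:**
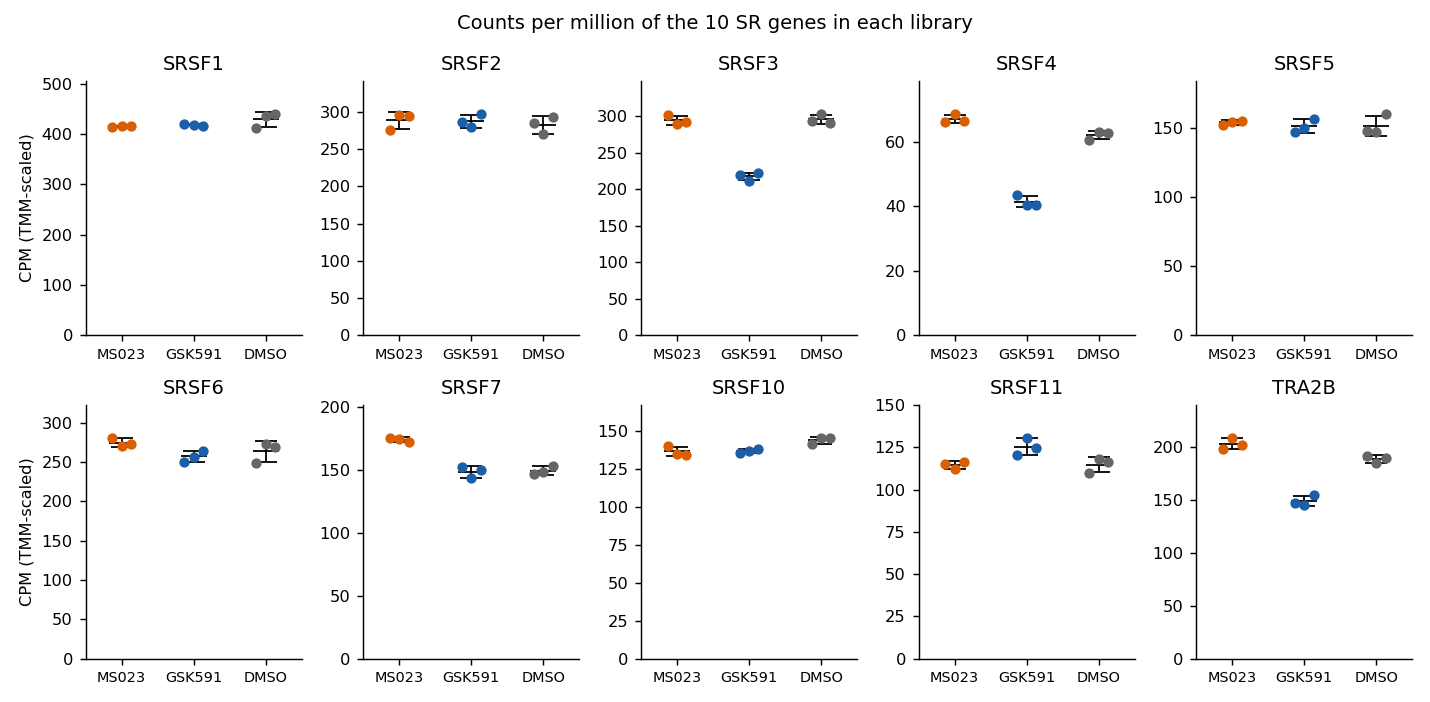
CPM (TMM-scaled, axis from 0) of each of the 10 SR genes. Points are libraries, with 3 per group in the order MS023, GSK591 and DMSO, and black bars are mean ± SD. The GSK591 points lie below all others for SRSF3, SRSF4 and TRA2B, and the MS023 points lie above all others for SRSF4, SRSF7 and TRA2B.

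SRSF4 is the SR protein with the longest arginine-serine tail. It is encoded on chromosome 1 (29474254 to 29508499, hg19, as the authors' tables give it). On the log2 scale it had the widest range of group means among the 10 genes. SRSF4 was at 66.21, 68.59 and 66.42 CPM in the MS023 libraries, 43.52, 40.45 and 40.43 CPM in the GSK591 libraries, and 60.59, 62.93 and 62.69 CPM in the DMSO libraries. All GSK591 libraries were low, all MS023 libraries were high, and no 2 of the groups overlapped. SRSF4 fell by 0.58 ± 0.04 on the log2 scale in GSK591 cells (adjusted p 9.46e-09). In MS023 cells it rose by 0.11 ± 0.04 (adjusted p 0.0271). The rise in MS023 cells lost its call without MS023 replicate 2 (log2 0.09, adjusted p 0.125), MS023 replicate 3 (0.12, 0.0639), DMSO replicate 1 (0.11, 0.0534) or DMSO replicate 3 (0.12, 0.0529).

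SRSF6, a close relative of SRSF4 with a pair of RNA recognition motifs, was called in neither comparison with DMSO. SRSF6 was at 280.5, 270.3 and 272.5 CPM in the MS023 libraries, 249.9, 256.4 and 264.3 CPM in the GSK591 libraries, and 248.7, 272.8 and 268.6 CPM in the DMSO libraries. Each inhibitor group overlapped the DMSO group. Its log2 change was -0.04 ± 0.04 in GSK591 cells (adjusted p 0.475) and 0.06 ± 0.04 in MS023 cells (adjusted p 0.259). The ratio of both genes within a library does not depend on how libraries are scaled. SRSF4 had 23.6, 25.4 and 24.4 counts per 100 SRSF6 counts in the MS023 libraries, 17.4, 15.8 and 15.3 in the GSK591 libraries, and 24.4, 23.1 and 23.3 in the DMSO libraries. The GSK591 ratios lay below every other library, and the MS023 and DMSO ratios overlapped. SRSF5, another SR protein with a pair of RNA recognition motifs, averaged 154.2 ± 1.71 CPM in MS023, 151.5 ± 4.93 CPM in GSK591 and 151.8 ± 7.40 CPM in DMSO libraries. Its change was 0.00 ± 0.04 in GSK591 cells and 0.02 ± 0.04 in MS023 cells, with adjusted p-values of 0.962 and 0.669 by edgeR's quasi-likelihood test.

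SRSF3 and SRSF7 have a single RNA recognition motif and also act as adaptors for export of mRNA from the nucleus. SRSF3 was at 301.2, 289.7 and 292.5 CPM in the MS023 libraries, 219.0, 211.4 and 221.8 CPM in the GSK591 libraries, and 292.7, 302.7 and 291.2 CPM in the DMSO libraries. The GSK591 libraries were all lower than the rest, while the MS023 and DMSO libraries overlapped. SRSF3 fell by 0.44 ± 0.04 on the log2 scale in GSK591 cells (adjusted p 9.36e-08), and its change in MS023 cells was -0.01 ± 0.04 (adjusted p 0.922).

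SRSF7, which carries a zinc knuckle beside its RNA recognition motif, was called in MS023 cells only, and its difference between the inhibitors is given with their direct comparison. It was at 175.8, 175.3 and 172.4 CPM in the MS023 libraries, 152.4, 143.6 and 150.5 CPM in the GSK591 libraries, and 147.1, 148.5 and 153.8 CPM in the DMSO libraries. All MS023 libraries were higher than the other 6, and the GSK591 and DMSO libraries overlapped. SRSF7 rose by 0.22 ± 0.04 on the log2 scale in MS023 cells (adjusted p 1.45e-04), and its change in GSK591 cells was -0.01 ± 0.04 (adjusted p 0.829). SRSF3 had 171.4, 165.3 and 169.6 counts per 100 SRSF7 counts in the MS023 libraries, 143.7, 147.3 and 147.4 in the GSK591 libraries, and 198.9, 203.8 and 189.3 in the DMSO libraries. No groups overlapped in this ratio, which was highest in every DMSO library and lowest in every GSK591 library.

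**Figure D2:**
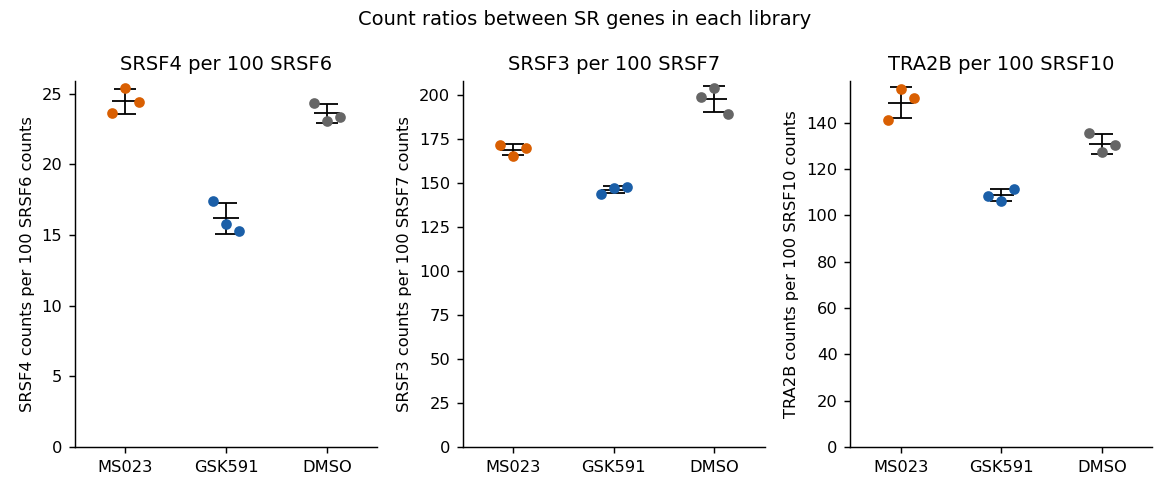
Counts of SRSF4 per 100 SRSF6, SRSF3 per 100 SRSF7 and TRA2B per 100 SRSF10 in each library (axes from 0). Points are libraries and black bars are mean ± SD (n = 3). The 3 GSK591 libraries are lowest in each panel. The pairs were chosen after the values had been seen, so the ratios are descriptions without a test.

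SRSF1 and SRSF2 bind exonic splicing enhancers. SRSF1 is a known oncoprotein, and SRSF2 stays in the nucleus and is recurrently mutated in myeloid cancers. SRSF1 averaged 415.7 ± 0.783 CPM in MS023, 418.9 ± 1.41 CPM in GSK591 and 429.7 ± 15.5 CPM in DMSO libraries. SRSF2 averaged 289.1 ± 11.4 CPM in MS023, 288.0 ± 8.84 CPM in GSK591 and 282.8 ± 11.6 CPM in DMSO libraries. Both genes overlapped between each inhibitor and DMSO. SRSF1 changed by -0.04 ± 0.04 on the log2 scale in GSK591 cells (adjusted p 0.386) and by -0.05 ± 0.04 in MS023 cells (adjusted p 0.282). SRSF2 changed by 0.03 ± 0.04 in each comparison with DMSO (adjusted p 0.618 in GSK591 and 0.575 in MS023 cells). SRSF2 overlaps MFSD11, whose counts came to 7.5% of those of SRSF2. MFSD11 fell by 0.60 in GSK591 and by 0.63 in MS023 cells on the log2 scale (adjusted p 2.22e-08 and 2.47e-08), and with an unknown strand setting reads from the 2 genes may not be told apart.

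TRA2B is an SR-like protein that activates exons rich in GAA repeats, among them an exon of SMN2 that decides whether functional survival motor neuron protein is made. It was at 198.1, 208.4 and 202.1 CPM in the MS023 libraries, 146.7, 145.2 and 154.3 CPM in the GSK591 libraries, and 191.7, 184.4 and 189.3 CPM in the DMSO libraries. All GSK591 libraries were low, all MS023 libraries were high, and the 3 groups did not overlap. TRA2B fell by 0.34 ± 0.04 on the log2 scale in GSK591 cells (adjusted p 1.72e-06) and rose by 0.11 ± 0.04 in MS023 cells (adjusted p 0.0291). The rise in MS023 cells lost its call without MS023 replicate 2 (log2 0.09, adjusted p 0.135), MS023 replicate 3 (0.11, 0.0742) or DMSO replicate 3 (0.11, 0.0531).

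SRSF10, a splicing repressor when its tail is dephosphorylated, was at 140.3, 135.0 and 134.3 CPM in the MS023 libraries, 135.5, 136.7 and 138.3 CPM in the GSK591 libraries, and 141.4, 145.1 and 145.5 CPM in the DMSO libraries. Every inhibitor library was lower than every DMSO library, but neither difference passed the test in the reported fit. The log2 changes were -0.07 ± 0.03 in GSK591 cells (adjusted p 0.0714) and -0.08 ± 0.03 in MS023 cells (adjusted p 0.0717). The change in MS023 cells gained a call with a filter of 1 CPM in 3 libraries (-0.07, adjusted p 0.0422) or without MS023 replicate 1 (-0.1, 0.0459). Without that library SRSF10 was also called in the F-test among the 3 groups (adjusted p 0.047). TRA2B had 141.1, 154.3 and 150.5 counts per 100 SRSF10 counts in the MS023 libraries, 108.3, 106.2 and 111.5 in the GSK591 libraries, and 135.6, 127.1 and 130.1 in the DMSO libraries. The 3 groups did not overlap in this ratio.

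SRSF11, an SR-related protein that interacts with U2AF, was the 1 gene of the group called higher in GSK591 cells. It was at 114.8, 111.9 and 116.4 CPM in the MS023 libraries, 120.6, 130.5 and 124.4 CPM in the GSK591 libraries, and 109.7, 118.1 and 116.4 CPM in the DMSO libraries. The GSK591 libraries were the highest 3, and the MS023 and DMSO libraries overlapped. SRSF11 rose by 0.13 ± 0.04 on the log2 scale in GSK591 cells (adjusted p 0.0127), and its change in MS023 cells was -0.01 ± 0.04 (adjusted p 0.929). Without GSK591 replicate 2, the highest library, the rise was 0.10 with an adjusted p of 0.0564. In the authors' FPKM the change was 0.06 and not called (adjusted p 0.519 by limma), or 0.15 relative to the median gene, which moved by -0.10 there.

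Set against all genes tested, the 4 of 10 SR genes called between GSK591 and DMSO stand beside 62.6%, made up of 30.1% higher and 32.4% lower in GSK591 cells. Libraries of the 2 groups did not overlap for 5 of the 10, against 65.6% of all genes. The median size of the log2 change was 0.06 over the 10 and 0.33 over all genes. The 6 genes not called had 95% intervals within -0.15 to 0.12 on the log2 scale, that is, folds within 0.904 to 1.09.

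Between MS023 and DMSO, 3 of the 10 were called, all higher, against 51.0% of all genes, made up of 25.1% higher and 25.9% lower. Libraries did not overlap for 4 of the 10, against 57.5% of all genes. The median size of the log2 change was 0.05 over the 10 and 0.24 over all genes. The 7 genes not called had 95% intervals within -0.15 to 0.15, or folds within 0.902 to 1.11.

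**Figure D3:**
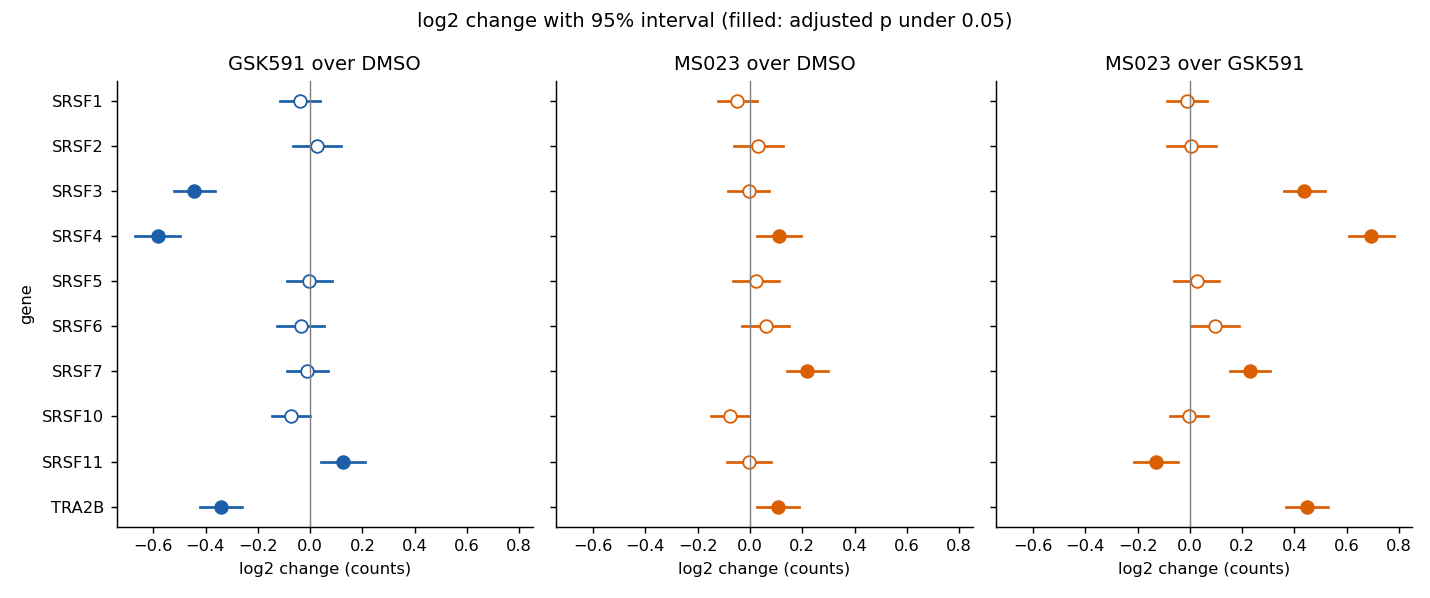
Fitted log2 change in counts of the 10 SR genes for GSK591 over DMSO, MS023 over DMSO and MS023 over GSK591. Circles are estimates from 3 libraries per group, lines are 95% intervals, and filled circles have an adjusted p under 0.05. SRSF4, SRSF3 and TRA2B lie left of 0 in the first panel and right of 0 in the third.

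The inhibitors were compared directly at the same dose and day. SRSF4, TRA2B, SRSF3 and SRSF7 were higher in MS023 cells than in GSK591 cells by 61.8%, 36.4%, 35.4% and 17.3%. The log2 differences were 0.69 ± 0.04 for SRSF4 (adjusted p 8.92e-10), 0.45 ± 0.04 for TRA2B (7.41e-08), 0.44 ± 0.04 for SRSF3 (7.97e-08) and 0.23 ± 0.04 for SRSF7 (5.38e-05). SRSF11 was lower in MS023 cells, by -0.13 ± 0.04 (adjusted p 0.00954). That call was lost in FPKM (-0.15, adjusted p 0.0948 by limma), where SRSF11 differed by -0.24 relative to the median gene, which moved by 0.09. These 5 of 10 stand against 65.4% of all genes called, 33.6% higher and 31.7% lower in MS023 cells. Libraries did not overlap for 7 of the 10, against 70.5% of all genes. SRSF6 differed by 0.10 ± 0.04 without a call (adjusted p 0.0601), although its MS023 libraries all lay above its GSK591 libraries, and it was called in 5 of the alternative fits. SRSF1, SRSF2, SRSF5 and SRSF10 had differences between -0.01 and 0.03, and with SRSF6 their 95% intervals lay within -0.09 to 0.19. In an F-test among the 3 groups, SRSF3, SRSF4, SRSF7, SRSF11 and TRA2B were called, which is 5 of 10, against 78.1% of all genes.

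The summed CPM of the 10 genes was 2120 to 2126 in the MS023 libraries, 1913 to 1966 in the GSK591 libraries and 2037 to 2121 in the DMSO libraries. The GSK591 sums lay below all others, and the highest DMSO library exceeded the lowest MS023 library. Levels of different genes were compared per length, in the FPKM values that the authors deposited (fragments scaled to transcript length and to depth). SRSF1 was highest in each group, at 149.0 ± 3.99 FPKM in MS023, 137.9 ± 5.19 FPKM in GSK591 and 148.3 ± 8.43 FPKM in DMSO libraries. SRSF2 was next, at 133.8 ± 0.942 FPKM in MS023, 121.0 ± 2.11 FPKM in GSK591 and 128.6 ± 5.15 FPKM in DMSO libraries. SRSF4 was lowest of the 10 in each group, at 25.6 ± 1.98 FPKM in MS023, 17.2 ± 1.33 FPKM in GSK591 and 23.7 ± 1.00 FPKM in DMSO libraries. Between these ends the order was SRSF7, SRSF5, TRA2B, SRSF3, SRSF6, SRSF10 and SRSF11 in MS023 cells. In GSK591 cells it was SRSF5, SRSF7, SRSF6, TRA2B, SRSF3, SRSF10 and SRSF11, and in DMSO cells SRSF5, SRSF7, TRA2B, SRSF6, SRSF3, SRSF10 and SRSF11. Libraries of neighbours in the order overlapped for SRSF7 and SRSF5 and for SRSF3 and SRSF6 in MS023 cells, for SRSF3 and SRSF10 in GSK591 cells, and for SRSF6 and SRSF3 in DMSO cells. SRSF3 averaged 65.1 ± 1.49 FPKM in MS023, 49.7 ± 1.53 FPKM in GSK591 and 62.7 ± 1.38 FPKM in DMSO libraries, so that in GSK591 cells it stood beside SRSF10 at 49.2 ± 0.331 FPKM.

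**Figure D4:**
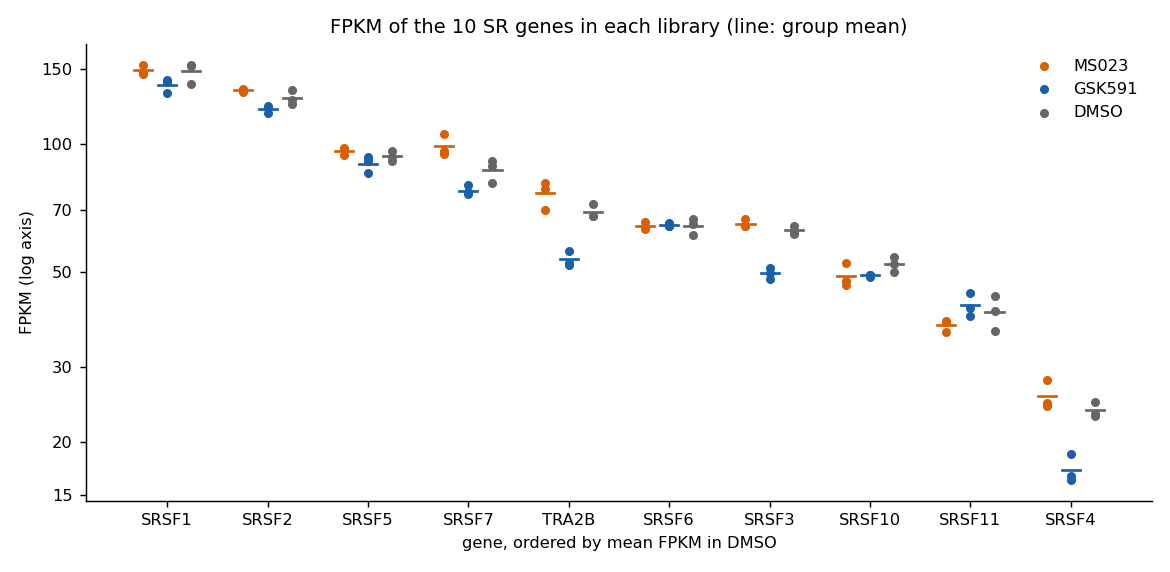
Deposited FPKM of the 10 SR genes (log axis), ordered by the mean in DMSO libraries. Points are libraries (3 per group, in the order MS023, GSK591 and DMSO) and short lines are group means. SRSF1 is highest and SRSF4 lowest in each group.

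Tested with limma on log2(FPKM + 1), the median gene moved by -0.10 in GSK591 against DMSO cells, by -0.01 in MS023 against DMSO cells and by 0.09 in MS023 against GSK591 cells. Relative to that median, SRSF4, TRA2B and SRSF3 changed by -0.35, -0.27 and -0.24 in GSK591 cells, with adjusted p-values of 4.11e-04, 5.64e-04 and 9.31e-05 for the unshifted change. SRSF7 was called lower in GSK591 cells in FPKM, at -0.16 (adjusted p 0.0376) and -0.06 relative to the median, but not in counts. In MS023 cells SRSF7 was the only gene of the 10 called in FPKM, at 0.18 ± 0.06 (adjusted p 0.0297). In MS023 against GSK591 cells SRSF2 was called higher in FPKM, at 0.14 ± 0.04 (adjusted p 0.0132) and 0.05 relative to the median, but not in counts.

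Around these genes, 4 further SR family genes were measured. None was called in MS023 cells, where 51.0% of all genes were called. In GSK591 cells 2 rose and 1 fell, where 62.6% of all genes were called. In GSK591 cells SRSF9 fell by 0.28 ± 0.04 on the log2 scale (adjusted p 1.15e-05 by edgeR), while SRSF8 rose by 0.21 ± 0.04 (8.66e-04) and SRSF12 by 0.26 ± 0.09 (0.0209). The kinases of the arginine-serine tail and TNPO3, the nuclear import receptor of SR proteins, made up 10 measured genes. In GSK591 cells 4 rose and 4 fell, beside 30.1% and 32.4% of all genes, with a median of 0.00 beside 0.01 over all genes. SRPK1, the mainly cytoplasmic kinase, fell by 0.37 ± 0.03 (adjusted p 1.41e-07), and TNPO3 fell by 0.14 ± 0.03 (0.00196). The nuclear kinase CLK4 rose by 0.34 ± 0.06 (2.19e-04) and PRPF4B by 0.276 ± 0.035 (7.17e-06). SRPK3 rose by 1.12 ± 0.16 (2.59e-05) but was low, averaging 1.36 CPM in DMSO and 2.96 CPM in GSK591 libraries. In MS023 cells 3 rose and 1 fell, beside 25.1% and 25.9% of all genes, with a median of 0.03 beside 0.00 over all genes. CLK1, a nuclear kinase whose own message has detained introns, fell by 0.26 ± 0.05 (2.79e-04) and PRPF4B rose by 0.19 ± 0.03 (3.63e-04). The largest rise was that of SRPK3, by 0.61 ± 0.17 (0.0073), at a mean of only 2.07 CPM in MS023 libraries.

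Of 22 measured SR-related nuclear proteins, 10 rose and 6 fell in GSK591 cells, where 62.6% of all genes were called. In MS023 cells 6 rose and 4 fell, where 51.0% were called. Their medians were 0.04 in GSK591 and 0.06 in MS023 cells, beside 0.01 and 0.00 over all genes. In GSK591 cells CLASRP, a partner of CLK4, rose by 0.70 ± 0.06 (adjusted p 5.27e-08 by edgeR) and SREK1 by 0.62 ± 0.04 (8.86e-09), while the SR-cyclophilin PPIG fell by 0.44 ± 0.05 (1.07e-06). PPIG also fell in MS023 cells, by 0.20 ± 0.05 (0.0019). In MS023 cells LUC7L, a protein associated with U1, rose by 0.37 ± 0.05 (1.32e-05) and ARGLU1 by 0.34 ± 0.05 (9.25e-05). LUC7L also rose in GSK591 cells, by 0.27 ± 0.05 (1.5e-04), while ARGLU1 was not called there (0.05 ± 0.05, adjusted p 0.384).

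Of 15 other splicing regulators with poison or NMD exons, 6 rose and 7 fell in GSK591 cells (62.6% of all genes called), and 3 rose and 6 fell in MS023 cells (51.0% of all genes called). The medians were -0.09 in GSK591 and -0.11 in MS023 cells, beside 0.01 and 0.00 over all genes. CLK1 and CLK4, counted among the kinases, and TRA2A, counted among the further SR family genes, belong to this list as well. SNRPB, a core protein of the spliceosomal snRNPs, fell by 0.65 ± 0.06 in GSK591 cells (adjusted p 2.78e-07 by edgeR), HNRNPD by 0.60 ± 0.05 (5.10e-08) and HNRNPA2B1 by 0.59 ± 0.04 (2.15e-08). The neuronal splicing repressor PTBP2 fell by 0.35 ± 0.05 in MS023 cells (6.83e-05).

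Of 15 genes of NMD and the exon junction complex, 4 rose and 8 fell in GSK591 cells (62.6% of all genes called), and 3 rose and 2 fell in MS023 cells (51.0% of all genes called). The medians were -0.11 in GSK591 and -0.07 in MS023 cells, against the same 0.01 and 0.00 over all genes. UPF1, the helicase at the centre of NMD, rose by 0.37 ± 0.04 in GSK591 cells (adjusted p 2.57e-06 by edgeR) and by 0.26 ± 0.04 in MS023 cells (1.08e-04). SMG5, which helps return UPF1 to its unphosphorylated state, rose by 0.45 ± 0.04 in GSK591 cells (2.01e-07) and by 0.33 ± 0.04 in MS023 cells (9.89e-06). MAGOHB, an exon junction protein, fell by 0.49 ± 0.06 in GSK591 cells (5.47e-06) and by 0.35 ± 0.06 in MS023 cells (1.85e-04). Both comparisons share the DMSO libraries.

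**Figure D5:**
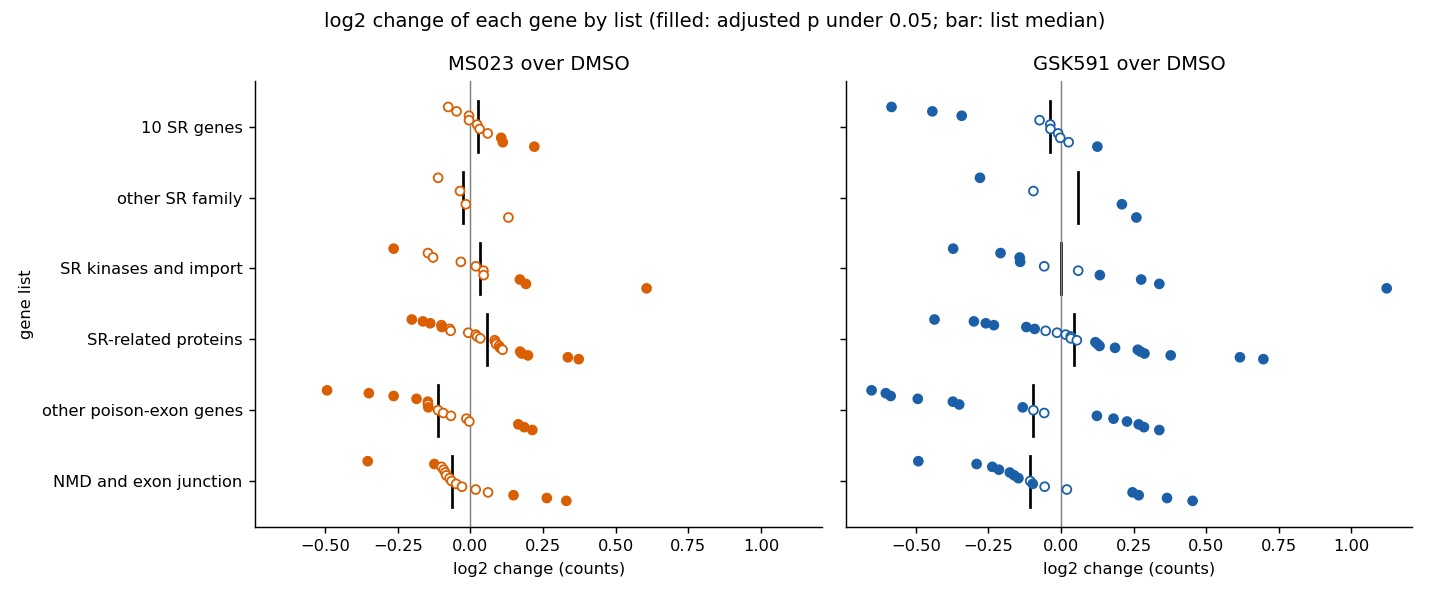
Fitted log2 change in counts of each measured gene, by list, for MS023 over DMSO and GSK591 over DMSO. Each circle is 1 gene, filled where the adjusted p is under 0.05, and black bars are list medians. The 10 SR genes lie between -0.58 and 0.13 in GSK591 cells and between -0.08 and 0.22 in MS023 cells.

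The genes whose pattern over the 9 libraries lay closest to that of SRSF4 were SHMT1, CARHSP1 and VASP, out of 9843 compared. Likeness was measured as the root mean square difference of log2 CPM, each gene centred on its own mean, and came to 0.0359, 0.0404 and 0.0415. SHMT1, a cytosolic enzyme of folate metabolism, had 87.6, 87.5 and 87.6 CPM in the MS023 libraries, 56.1, 56.1 and 54.8 CPM in the GSK591 libraries, and 80.7, 85.5 and 82.0 CPM in the DMSO libraries. Among the 10 SR genes, SRSF1 and SRSF10 lay closest to each other, at 0.0291, and SRSF3 and TRA2B were 0.0658 apart. All 10 share the same 9 libraries and their scaling, so the distances are descriptions.

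SRSF3, SRSF4 and TRA2B were the genes that fell in GSK591 cells, and the 250 bases before their annotated starts are shown with the motifs searched in capitals. They come from RefSeq (GRCh38.p14), which gave windows for 9 of the 10 genes, and read 5′ to 3′ on the transcribed strand.
SRSF3 at chr6:36594112-36594361, plus strand: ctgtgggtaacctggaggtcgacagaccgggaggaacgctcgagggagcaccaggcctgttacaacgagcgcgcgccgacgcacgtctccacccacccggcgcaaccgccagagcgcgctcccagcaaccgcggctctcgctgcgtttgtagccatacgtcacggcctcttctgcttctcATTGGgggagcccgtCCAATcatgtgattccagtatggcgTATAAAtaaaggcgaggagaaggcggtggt
SRSF4 at chr1:29181901-29182150, minus strand: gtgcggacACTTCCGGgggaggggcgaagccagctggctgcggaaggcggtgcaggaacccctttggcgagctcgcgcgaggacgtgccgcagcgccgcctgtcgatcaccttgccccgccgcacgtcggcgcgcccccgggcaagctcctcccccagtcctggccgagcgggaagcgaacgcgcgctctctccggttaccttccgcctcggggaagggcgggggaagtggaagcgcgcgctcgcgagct
TRA2B at chr3:185938015-185938264, minus strand: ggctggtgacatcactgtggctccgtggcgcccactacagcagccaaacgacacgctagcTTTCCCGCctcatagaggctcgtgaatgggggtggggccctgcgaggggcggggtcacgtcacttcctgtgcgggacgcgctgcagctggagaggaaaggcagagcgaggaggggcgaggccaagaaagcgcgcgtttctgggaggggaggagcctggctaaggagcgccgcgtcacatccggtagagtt
On either strand of the 300 bases around the start, 7 motifs were searched. SRSF3 held TATAAA and CCAAT, which 11.5% and 34.6% of all 35116 windows held. SRSF4 held CCGGAAGT, present in 4.1% of windows, and TRA2B held TTTCCCGC, present in 1.6%. None of the 7 was found in more than 1 of these 3 windows. CACGTG, TTTGGCGC and TGACGTCA were found in none of the 9 genes, and in 7.3%, 0.7% and 1.8% of all windows. Of the other genes, SRSF5 held CCGGAAGT, SRSF10 held TTTCCCGC, and SRSF7 and SRSF11 held TATAAA at 1 of their annotated starts. These are matches of letters, and binding was not measured.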

How the data were processed

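The authors deposited a table of read counts per gene, without normalisation, and FPKM tables per library (fragments scaled to gene length and depth, in the layout of Cufflinks output). Per the labels' protocols, ribosomal RNA was removed and libraries were random-primed and read from both ends. The submitters' processing notes name cutadapt, STAR, featureCounts, DESeq2 and hg19. Not given in the sources used here are versions, annotation and strand setting. The counts were fitted with edgeR 4.0.16 (R 4.3.3): filterByExpr (minimum count 10), TMM scaling, and a quasi-likelihood fit with group as its only term over all 9 libraries. P-values are two-sided and adjusted by Benjamini-Hochberg over 18292 genes, and limma 3.58.1 (FPKM, pseudocount 1) and DESeq2 1.42.0 served as alternatives. Scripts were tested on simulated data. Of the 10 SR genes all are named. Of each other list, up to 3 called genes each way per comparison were eligible by size of log2 change, at a mean of at least 1 CPM, plus the 3 genes most like the most variable SR gene, at a mean of at least 10 CPM, and PRMT5 and PRMT1. The genes and lists were chosen with earlier results of these data known. Replicates of a group differed by more than sampling noise (chi-square per degree of freedom 2.31 to 87.0), so none was merged. Reads are not independent molecules. Protein sequences were not used here. A few eligible genes are not reported here.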

Additional observations from a re-analysis of the deposited data

How the results depend on the processing

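The alternatives were run for the 10 SR genes and for counts over all genes, not for the other named genes. The falls of SRSF4, SRSF3 and TRA2B in GSK591 cells kept their call in the fits tried, except that only SRSF4 passed glmTreat, which asks for changes beyond a log2 of 0.5. Under glmTreat the number of SR genes called was 1 between GSK591 and DMSO, 0 between MS023 and DMSO and 1 between MS023 and GSK591, and over all genes it was 3257, 1797 and 4177, against 11443, 9327 and 11955 in the reported fit. Between MS023 and DMSO the count of 3 SR genes fell to 1 at an adjusted p of 0.01, to 1 in FPKM tested by limma at either pseudocount (1 or 0.1), and to 0 in FPKM without a filter. Over all genes, 7144 of 18292 were called at an adjusted p of 0.01. The same 3 FPKM fits called 5785 and 5773 of 13593 genes at the pseudocounts of 1 and 0.1, and 5481 of 31617 without a filter. With each library left out in turn, the SR genes called ranged from 3 to 4 between GSK591 and DMSO, 1 to 4 between MS023 and DMSO, 5 to 6 between MS023 and GSK591 and 4 to 6 in the F-test. Those fits tested 18611 to 18955 genes. In the same order they called 10588 to 11572, 8012 to 9297, 11211 to 12364 and 13774 to 14470 of them. Replicate numbers do not pair the libraries: over 9 same-numbered pairs, deviations from the group mean correlated from -0.43 to 0.26, with 2 over 0.1. With the replicate number as a block, 4, 2 and 5 SR genes were called in the 3 comparisons and 5 in the F-test, and TRA2B in MS023 cells lost its call (log2 0.11, adjusted p 0.0683). Of all 18292 genes, the block fit called 11145, 8855 and 11642 in the 3 comparisons and 13946 in the F-test. SRSF6 between MS023 and GSK591 gained a call with no filter (adjusted p 0.0172), without DMSO replicate 1 (0.0247), DMSO replicate 2 (0.0432) or GSK591 replicate 3 (0.0435), and without DMSO replicate 1 and GSK591 replicate 3 together (0.018). SRSF11 lost its F-test call in FPKM (adjusted p 0.184 to 0.326), without GSK591 replicate 2 (0.0612) and at a threshold of 0.01 (0.011). The genes that changed sign were not called in the reported fit, and the cause was not tested. Reported at 0.00, SRSF5 ranged from -0.06 to 0.06 between GSK591 and DMSO and SRSF10 from -0.04 to 0.02 between MS023 and GSK591. The others are given with 2 decimals. In GSK591 against DMSO they were SRSF1 (0.02 with total count scaling, 0.01 with a filter of 1 CPM), SRSF2 (-0.09 in all 3 FPKM fits), SRSF6 (0.02 with total counts, 0.01 with the 1 CPM filter and in FPKM) and SRSF7 (0.05 with total counts, 0.04 with the 1 CPM filter, -0.02 to 0.02 with a library left out). In MS023 against DMSO they were SRSF1 (0.01 in FPKM), SRSF3 (0.03 with total counts, 0.01 with no filter, 0.05 in FPKM, -0.02 to 0.03 with a library left out) and SRSF11 (0.03 with total counts, 0.01 with no filter, -0.02 to 0.03 with a library left out). In MS023 against GSK591 they were SRSF1 (0.01 with no filter, 0.11 in FPKM), SRSF2 (-0.01 with RLE scaling, without the 20 most abundant genes, in DESeq2 and with only the 6 libraries compared, -0.02 with total counts, -0.03 with the 1 CPM filter, -0.02 to 0.04 with a library left out), SRSF5 (-0.01 with the 1 CPM filter) and SRSF6 (-0.01 in FPKM).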

Other observations

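Between the inhibitors, the genes around the SR group moved in both directions, as did all genes tested, of which 65.4% were called, 33.6% higher and 31.7% lower in MS023 cells. Of the 10 kinases and import genes, 4 were higher and 5 lower in MS023 than in GSK591 cells, among them SRPK1, higher by 0.34 ± 0.03 on the log2 scale (adjusted p 2.97e-07 by edgeR's quasi-likelihood test), and CLK4, at -0.48 ± 0.06 (6.20e-06). Of the 22 SR-related proteins 7 were higher and 8 lower, with CLASRP at -0.67 ± 0.06 (5.37e-08) and SREK1 at -0.60 ± 0.04 (8.41e-09). Of the 15 other regulators with poison or NMD exons, 6 were higher and 6 lower. TIA1, an activator of weak splice sites, differed by -0.45 ± 0.04 (1.20e-07), and HNRNPDL by 0.54 ± 0.04 (8.13e-09). Of the 15 NMD and exon junction genes 4 were higher and 4 lower, with the endonuclease SMG6 at -0.39 ± 0.04 (1.09e-06). Medians of these 4 lists were -0.09, -0.02, -0.02 and 0.10, beside 0.00 over all genes.

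Marker lists of epithelial cells, the labelled cell type, and of other cell types moved with the groups, and their part in the values above was not tested. The 5 epithelial markers summed to 5100 to 5280 CPM (of unscaled totals) in MS023, 7580 to 7990 in GSK591 and 6230 to 6320 in DMSO libraries, nearly all of it keratins. EPCAM went the other way, at -1.07 ± 0.09 on the log2 scale in GSK591 cells (adjusted p 5.99e-08 by edgeR) and 0.64 ± 0.08 in MS023 cells (6.77e-06). The 5 leukocyte markers summed to 15.1 to 15.8 in MS023, 26.2 to 28.1 in GSK591 and 17.9 to 18.0 in DMSO libraries, nearly all of it CD68 and ITGAM. ITGAM changed by 1.31 ± 0.11 in GSK591 cells (adjusted p 6.18e-08 by edgeR) and by -0.85 ± 0.13 in MS023 cells (5.97e-05). The 4 measured markers of fibroblasts and endothelium summed to 24.2 to 27.2 in MS023, 6.98 to 8.73 in GSK591 and 10.6 to 12.6 in DMSO libraries, nearly all of it COL1A1, while COL1A2 had at most 2 counts in a library.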
